A study of Mus musculus with 3 samples.

Results

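Ciliated cells are the motile-cilia cells of the airway surface, and they were chosen here from 3 droplet libraries by 5 genes: a barcode had to carry 2 or more UMIs (unique molecular identifiers, the count of distinct captured RNA molecules) of at least 3 of Foxj1, Tmem212, Ccdc153, Dynlrb2 and Tppp3. The barcode also had to show 500 or more genes and at most 15% mitochondrial UMIs. This gave 558 ciliated cells of 10457 barcodes past the same filters: 467 of 3196 in the Club-Tracer library, 78 of 1402 in the BASC-Tracer library and 13 of 5859 in the AT2-Tracer library. The lungs came from mice of the genotype Scgb1a1-CreER;Sftpc-DreER;R26-TLR, in which tamoxifen-inducible CreER is driven by the club cell gene Scgb1a1 and DreER by the alveolar type 2 (AT2) gene Sftpc, with a fluorescent reporter in the Rosa26 locus. Every library came from lungs taken 4 weeks after bleomycin, a drug that injures the lung epithelium, and there was no uninjured library. Lung cells were released with proteases and sorted on fluorescence into red cells carrying tdTomato (Club-Tracer), cells carrying both tdTomato and ZsGreen (BASC-Tracer, named for bronchioalveolar stem cells) and green cells carrying ZsGreen (AT2-Tracer). The age, sex and number of the mice, and whether animals were pooled, are not given in the sources used here. With 1 library for each lineage there is no replicate, so values are given for libraries and no test between lineages was made.

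A motile cilium is built on a basal body and holds a ring of doublet microtubules around a central pair. Dynein arms on the doublets bend the cilium, radial spokes and the nexin-dynein regulatory complex coordinate the arms, and intraflagellar transport carries the parts into the growing cilium. In the airway these cells move mucus upward, they form from secretory and basal progenitors, and they depend on multiciliate transcription factors such as Foxj1, Mcidas, Myb and the Rfx family; Ccno and Deup1 act in the burst of centriole formation that precedes cilia.

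Ciliated cells made up 14.6% of the Club-Tracer barcodes (95% exact binomial interval 13.4 to 15.9), 5.56% of the BASC-Tracer barcodes (4.42 to 6.90) and 0.222% of the AT2-Tracer barcodes (0.118 to 0.379). All intervals printed here are 95% exact intervals and cover counting error only, not differences between animals or sorts, and the shares depend on the sort gates. In the gene annotation of GRCm38 the 5 genes that chose the cells are protein-coding and lie at chr11:116330704-116335399 (Foxj1), chr3:27866066-27896368 (Tmem212), chr9:44240676-44247306 (Ccdc153), chr8:116504974-116515915 (Dynlrb2) and chr8:105467493-105471526 (Tppp3). These genes separated barcodes sharply, which is a description of the choice and not a finding. In the Club-Tracer library 2554 barcodes had none of the 5 genes at 2 UMIs, 147 had 1, 28 had 2, 21 had 3, 64 had 4 and 382 had all 5. The 28 barcodes just outside the limit held a median of 8 UMIs of the rule genes, the 21 just inside a median of 13, and the 382 with all 5 genes a median of 91.5. In the BASC-Tracer library 5 barcodes lay just outside and 4 just inside, with medians of 6 and 13 rule-gene UMIs, against 95.5 in the 66 with all 5 genes. In the AT2-Tracer library 10 barcodes lay just outside, none had exactly 3 genes, 1 had 4 and 12 had all 5.

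**Figure D1:**
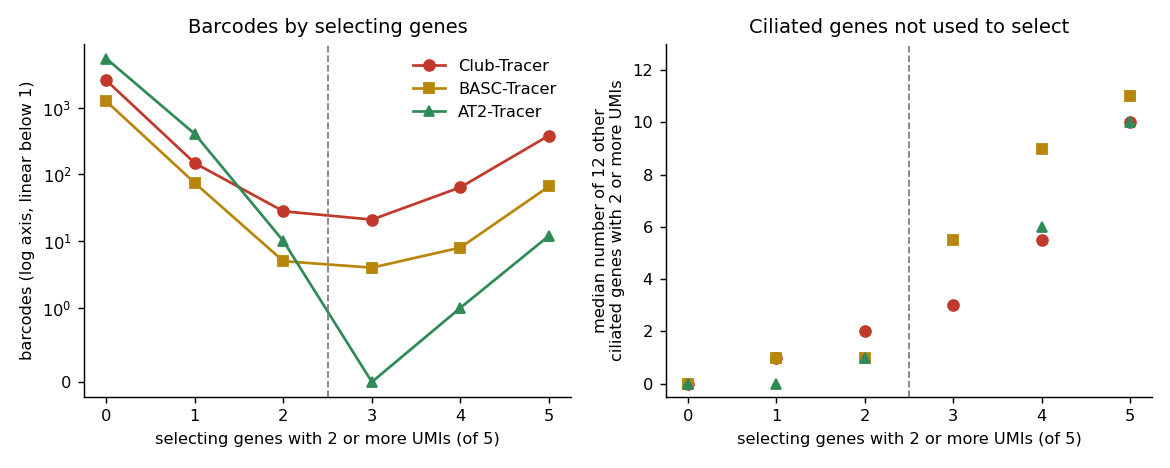
Left, number of kept barcodes (vertical axis, logarithmic, linear below 1) by how many of the 5 rule genes reached 2 UMIs (horizontal axis); right, the median number of the 12 other ciliated genes with 2 or more UMIs in the same barcodes, by library, with a dashed line at the limit between 2 and 3 rule genes. Counts fall to 28 (Club-Tracer), 5 (BASC-Tracer) and 10 (AT2-Tracer) barcodes at 2 genes and rise again to 382, 66 and 12 at all 5, where the median of the other genes is 10, 11 and 10.

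The label was checked with 12 other ciliated cell genes (Sec14l3, Cdhr3, Sntn, Mlf1, Capsl, Riiad1, Ccdc113, Rsph1, Tekt1, Lrriq1, Dnah5 and Hydin) that the rule does not read. At least 3 of the 12 had 2 or more UMIs in 452 of 467 Club-Tracer ciliated cells (96.8%), 78 of 78 BASC-Tracer cells and 13 of 13 AT2-Tracer cells. Among barcodes that were not ciliated, the same held for 0.953%, 0.227% and 0.0513% of the 3 libraries. Barcodes just outside the limit in the Club-Tracer library had a median of 2 of the 12 genes, those just inside a median of 3, and those with all 5 rule genes a median of 10. Basal and endothelial markers were close to 0: the 6 basal cell markers summed to 5.04, 3.41 and 0 CPM (UMIs of a gene per 1000000 UMIs summed over the cells) in the ciliated cells of the libraries in the order above, and the 6 endothelial markers to 4.17, 3.41 and 4.77 CPM. The 11 club cell markers summed to 37630, 11029 and 5033 CPM and the 9 AT2 markers to 4116, 1479 and 21355 CPM, so RNA of these secretory classes was present among ciliated barcodes; where it sat is given below. The 7 AT1 markers summed to 899.8, 854 and 1331 CPM, with medians of 801, 617 and 823 CPM per cell. The 7 macrophage or monocyte markers summed to 456, 68.2 and 992 CPM, the 7 upper airway secretory markers to 1046, 67.5 and 19.1 CPM, and the 5 fibroblast or smooth muscle markers to 3.599, 2.05 and 277 CPM. The part of these cell types in the results was not tested.

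The ciliated cells held a median of 11835 UMIs and 3977 genes in the Club-Tracer library, 14747 UMIs and 4576 genes in the BASC-Tracer library, and 12016 UMIs and 3919 genes in the AT2-Tracer library, and 6946367, 1466911 and 209603 UMIs in all. Their median mitochondrial share was 4.11%, 4.15% and 5.51%, against 1.73%, 1.73% and 2.29% in the other barcodes of the same libraries. In the Club-Tracer library 21 ciliated barcodes also met the marker limits of another class (12 club, 7 upper airway secretory and 5 AT2, some counted more than once), as did 1 in each of the other libraries; these are called mixed barcodes. The 21 had a median of 36426 UMIs, against 11206 in the other Club-Tracer ciliated barcodes, and the secretory genes they carry most of are given with and without them. The marker lists hold, among others, Scgb1a1 and Scgb3a2 (club), Scgb3a1, Bpifa1 and Reg3g (upper airway secretory) and Sftpc and Cxcl15 (AT2). The shares of these genes in mixed barcodes are thus partly set by the definition. Between 6 and 23 kept barcode sequences were shared by any pair of libraries, and none was ciliated in both libraries of a pair.

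Against club cells, ciliated cells were far higher in the genes of the motile cilium, in both libraries. Foxj1, the transcription factor of motile cilia, stood at 1092 CPM (1068 to 1117) in Club-Tracer, 1226 CPM (1170 to 1284) in BASC-Tracer and 716 CPM (606 to 840) in AT2-Tracer ciliated cells. Club cells held 1.54 CPM of Foxj1 in the Club-Tracer library and 2.42 CPM in the BASC-Tracer library, and macrophages, which should lack it, 1.02 CPM in the AT2-Tracer library. Tmem212, a small membrane protein gene, stood at 1404, 1254 and 1479 CPM in the ciliated cells of the 3 libraries, and at 1.22 and 0.880 CPM in club cells of the first 2. Both genes belong to the rule, so their height is a description. The club cells used here were barcodes with at least 8 of 11 club markers, 699 in the Club-Tracer and 134 in the BASC-Tracer library. The 11 were Cldn10, Cckar, Gabrp, Kcnj16, Aldh1a1, Pon1, Fmo2, Cyp2f2, Scgb3a2, Scgb1a1 and Hp, so their height in club cells is a description of that choice. The Club-Tracer library also gave 171 upper airway secretory cells (3 of 7 markers) and 76 basal cells (3 of 6 markers).

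Tuba1a, an alpha-tubulin that the rule did not read, was the gene farthest above club cells in the Club-Tracer library by the log2 ratio with 5 CPM added. It stood at 2060 CPM (2026 to 2094) in Club-Tracer, 2218 CPM (2142 to 2295) in BASC-Tracer and 1517 CPM (1355 to 1693) in AT2-Tracer ciliated cells, and was detected in 98.9%, 97.4% and 92.3% of them. Club cells held 2.13 CPM of Tuba1a in the Club-Tracer and 1.32 CPM in the BASC-Tracer library, a 968-fold (711 to 1356) and a 1679-fold (771 to 4579) difference. Upper airway secretory cells held 12.4 CPM and basal cells 4.13 CPM. The ciliated values lie within 1.5 times of each other while every other airway class is lower by more than 100-fold in the Club-Tracer library.

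Counted over all genes at 50 CPM or more in either class, 1807 of 3721 genes (48.6%) were at least 2-fold higher in ciliated than club cells in the Club-Tracer library and 144 (3.87%) at least 2-fold lower. These 2-fold and 16-fold calls and all log2 ratios add 5 CPM to both sides, which shrinks the ratios of low genes, whereas each N-fold value printed with an interval is a plain ratio of CPM. In the BASC-Tracer library 1683 of 4064 (41.4%) were higher and 248 (6.1%) lower. Of the higher genes 1449 were shared, 80.2% of the Club-Tracer list and 86.1% of the BASC-Tracer list. Of the lower genes 137 were shared, 95.1% and 55.2% of the respective lists. Against upper airway secretory cells 1493 of 3760 genes were higher (39.7%) and 202 lower (5.37%), and against basal cells 1102 of 4275 were higher (25.8%) and 623 lower (14.6%). Higher than all 3 classes by at least 2-fold were 990 of the 3647 genes tested against each, 200 of them by at least 16-fold, and 53 were lower than all 3.

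Many of these calls rest on how the totals are scaled. Scgb1a1 alone took 36.3% of the UMIs of club cells and 3.04% of those of ciliated cells in the Club-Tracer library, and 30.0% against 0.634% in the BASC-Tracer library, which lowers the CPM of every other club cell gene. The median log2 ratio of all tested genes was 0.97 in the Club-Tracer and 0.80 in the BASC-Tracer library, and 0.49 and 0.41 when the classes were scaled by the median ratio over genes instead. With that scaling 1155 genes (31%) were higher and 301 (8.09%) lower in the Club-Tracer library, and 1218 (30%) higher and 386 (9.5%) lower in the BASC-Tracer library. Log2 values below are on the CPM scale and are to be read against those medians. Counts of higher and lower genes by list are to be read against the shares of all genes tested. On the CPM scale these were 48.6% and 41.4% higher and 3.87% and 6.1% lower in the 2 libraries.

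The axoneme genes had higher log2 ratios than the median of all tested genes. Of 78 axoneme genes in the files, 66 reached 50 CPM in the Club-Tracer comparison and 66 were at least 2-fold above club cells, with a median log2 ratio of 4.61, from 1.96 for Nme7 to 6.49 for Cfap126. In the BASC-Tracer library it was 67 of 67, with a median of 4.89, from 1.61 for Nme7 to 6.68 for Dnah12. The same 66 of 66 count held against upper airway secretory cells (median 4.61) and basal cells (median 4.63), and 66 of 66 and 67 of 67 held against club cells with median scaling. The genes of these lists are also those by which ciliated cells are known, so their height describes the cells chosen. A gene low in club cells reaches 50 CPM only through ciliated cells, so these counts, and those by list below, are largely set by the limit. Without it, 8 of 8 outer arm, 12 of 12 inner arm and 10 of 11 assembly genes were higher in the Club-Tracer library. So were 16 of 16 spoke and central pair, 10 of 10 nexin-dynein and 21 of 21 tektin and inner protein genes.

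**Figure D2:**
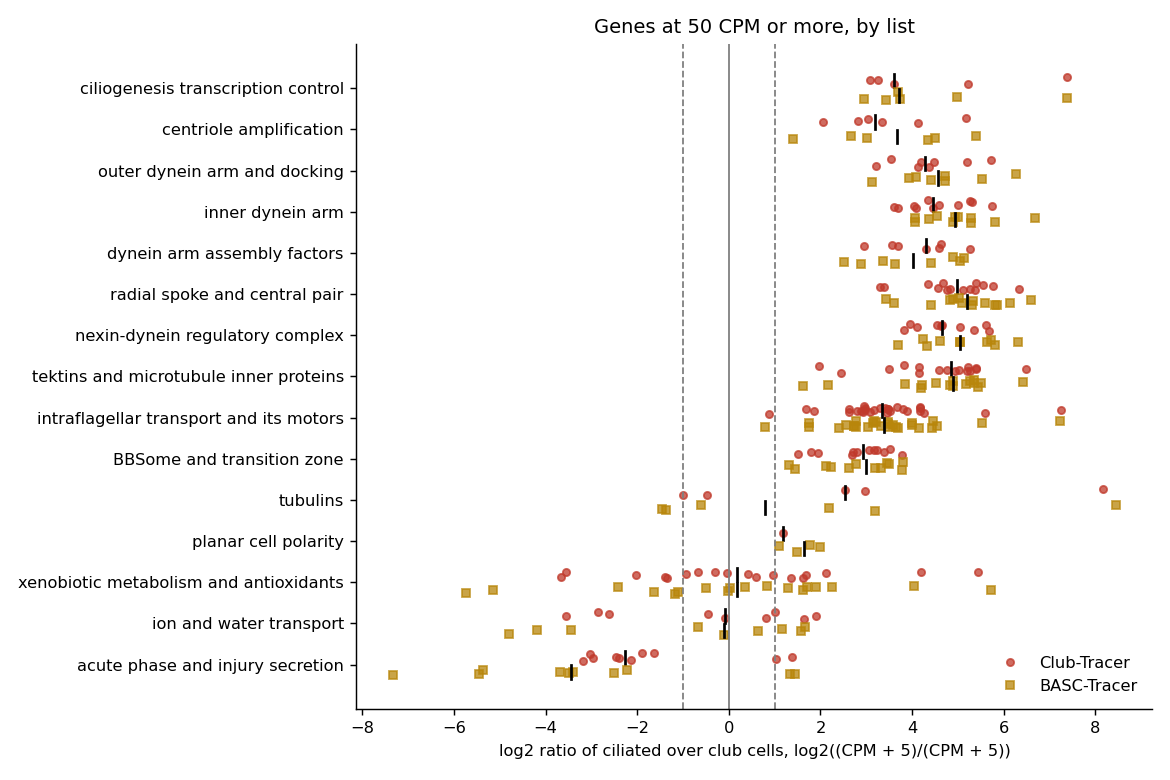
Log2 ratio of ciliated over club cells (horizontal axis, CPM with 5 CPM added) for each gene of each list at 50 CPM or more, one row per list, with circles for Club-Tracer and squares for BASC-Tracer; black ticks are list medians and dashed lines mark 2-fold. Axoneme lists sit well to the right, with medians from 4.28 to 4.97 in the Club-Tracer library, and the acute phase list has a median of -2.26.

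Within the axoneme, outer dynein arm genes were higher in 8 of 8 (median log2 ratio 4.28 in the Club-Tracer library). Dnah5, an outer arm heavy chain, stood at 293 CPM in Club-Tracer, 382 in BASC-Tracer and 229 in AT2-Tracer ciliated cells, against 0.691 and 0 CPM in the club cells of the first 2. Since no Dnah5 UMI was seen in BASC-Tracer club cells, the fold there is at least 579-fold, taking 3 UMIs over the class as the limit that a count of 0 allows. Dnah9, another outer arm heavy chain, stood at 203, 247 and 172 CPM. Inner dynein arm genes were higher in 11 of 11 (median 4.45), among them Dnah12 at 380, 577 and 353 CPM and Dnah6 at 213, 313 and 239 CPM. The dynein arm assembly factors, which build the arms in the cytoplasm, were higher in 7 of 7 (median 4.30), with Pih1d2 at 266, 269 and 224 CPM and Lrrc6 at 122, 166 and 119 CPM.

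Radial spoke and central pair genes were higher in 14 of 14 (median 4.97). Rsph1, a spoke head protein, stood at 510, 502 and 406 CPM in the 3 sets of ciliated cells, against 1.38 CPM in Club-Tracer club cells. Spag17, a central pair protein, stood at 294, 363 and 243 CPM. The nexin-dynein regulatory complex was higher in 10 of 10 (median 4.64), with Drc3 at 281, 301 and 229 CPM and Ccdc39, which sets the repeat length of the axoneme, at 260, 393 and 205 CPM. Tektins and microtubule inner proteins, which line the doublets, were higher in 16 of 16 (median 4.84). Cfap126 led them at 617, 578 and 639 CPM against 1.91 CPM in Club-Tracer club cells, a 322-fold (232 to 461) difference. Cfap20, at 288, 279 and 281 CPM, was closer to club cells because they held 48.5 CPM.

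Transport and gate genes were higher too, by less. Intraflagellar transport genes and motors were higher in 27 of 28 in both libraries (medians 3.35 and 3.39). Traf3ip1, also known as Ift54, stood at 444, 562 and 406 CPM against 4.31 CPM in Club-Tracer club cells. Ift20, which also acts at the Golgi, stood at 320, 290 and 339 CPM against 96.8 CPM. The exception was Dynlrb1, a dynein light chain used outside cilia as well, at 175, 159 and 200 CPM against 92.8 CPM in club cells (log2 ratio 0.88), whereas its paralog Dynlrb2, a rule gene, stood at 1232, 1344 and 1236 CPM against 3.09 CPM. BBSome and transition zone genes, which control entry into the cilium, were higher in 12 of 12 in both libraries (medians 2.92 and 2.99). B9d1 among them stood at 219, 202 and 239 CPM against 14.7 CPM in Club-Tracer club cells, and Bbip1 was nearest to club cells at a log2 ratio of 1.51.

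The tubulins did not move as a group. Of 5 tubulins at 50 CPM in the Club-Tracer comparison, 3 were higher in ciliated cells. In the BASC-Tracer comparison 3 of 6 were higher and 2 lower, 3 lower with median scaling. The shares of higher tubulins are near those of all genes tested, 48.6% and 41.4%. Tubb4b, the beta-tubulin of cilia, stood at 2387, 2061 and 1718 CPM in the ciliated cells of the 3 libraries and at 409 CPM in Club-Tracer club cells. Tuba1b stood at 931, 1082 and 320 CPM against 114 CPM. Tuba1c was at 88.4 CPM in Club-Tracer ciliated and 125 CPM in club cells, and Tubb5 at 49.1 and 103 CPM, with log2 ratios of -0.47 and -0.997; with median scaling Tubb5 passes 2-fold and Tuba1c does not in that library. Tubulin-modifying genes at 50 CPM were higher in 4 of 4 in both libraries (medians 4.14 and 4.43). One of them, the tubulin ligase Ttll3, stood at 124, 153 and 129 CPM against 0.638 CPM.

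Energy and nucleotide genes that serve the beating cilium were higher in 8 of 10 in both libraries (medians 4.43 and 4.57), beside 48.6% and 41.4% of all genes tested. Nme5, an axonemal member of the nucleoside diphosphate kinase family, stood at 515, 456 and 534 CPM against 1.49 CPM in Club-Tracer club cells. Ckb, brain-type creatine kinase, stood at 724, 737 and 1441 CPM against 5.00 CPM. The glycolytic enzymes Ldha and Pkm had log2 ratios of 0.98 and -0.32. Planar cell polarity genes, which align cilia, were low: 1 of 11 reached 50 CPM in the Club-Tracer comparison, Ptk7 at 69.5 CPM against 27.7 CPM, and with median scaling it was within 2-fold. In the BASC-Tracer comparison 4 reached that level and 4 were higher, 3 with median scaling, beside 41.4% and 30% of all genes tested.

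The transcription factors of the program were higher in 5 of 5 at 50 CPM in the Club-Tracer comparison and 6 of 6 in the BASC-Tracer comparison. Myb, which drives the early multiciliate state, stood at 223, 256 and 100 CPM against 1.12 CPM in Club-Tracer club cells, a 200-fold (130 to 324) difference. Trp73 stood at 57.3, 62.0 and 38.2 CPM against 0.106 CPM. Rfx2 at 93.7, 96.8 and 76.3 CPM and Rfx3 at 63.5, 105 and 76.3 CPM, factors that bind X-box sites, were against 6.70 and 2.13 CPM. E2f4, which works with Mcidas and is expressed widely, was at 31.0 CPM in Club-Tracer ciliated cells and 23.1 CPM in club cells. Centriole amplification genes were higher in 6 of 6 at 50 CPM in both libraries (medians 3.19 and 3.68), with Ccdc78, a deuterosome protein, at 180, 205 and 186 CPM against 0.106 CPM in Club-Tracer club cells.

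Promoters of some ciliated genes are shown because Rfx factors bind X-box sites, whose core includes the letters GTTGCC. RefSeq promoters on GRCm38.p6, from 250 bases before to 50 bases after the start site, were searched for these letters on both strands. They were present in 12.5% of 32851 RefSeq promoters, and in 23.5% (271 of 1155) of genes at least 2-fold above club cells in both libraries, 36.0% (68 of 189) of genes at least 16-fold above, 6.36% (7 of 110) of genes at least 2-fold below and 12.3% (158 of 1287) of genes within 2-fold. Axoneme genes held them in 31 of 61 promoters (50.8%) and intraflagellar transport genes in 12 of 28 (42.9%). The letters TAAACA, from the core that forkhead factors bind, were in 13.4% of all promoters, 10.1% of the 2-fold higher, 20.6% of the 16-fold higher and 7.93% of the genes within 2-fold. They were in 11.8% (13 of 110) of the 2-fold lower genes, 16.4% of axoneme and 10.7% of intraflagellar transport genes, so the shares did not order as those of GTTGCC did. These shares are descriptions of letters and were not tested, and a match is not a binding site. Ccdc153 (chr9:44240427-44240726, plus strand), Dynlrb2 (chr8:116504765-116505064, plus strand), Fam183b (chr11:58801911-58802210, minus strand) and Sntn (chr14:13670626-13670925, plus strand) hold the letters, shown in capitals, and Tmem212 (chr3:27896319-27896618, minus strand) does not hold them in this window. They begin at -152 from the start site in Ccdc153, -51 in Dynlrb2, -67 and -16 in Fam183b and -66 in Sntn. The promoters of Tuba1a, Tm4sf1 and Cfap126, which are among the 15 genes highest above club cells, do not hold the letters. Sntn is not among those 15. The promoters of Drc1, Ift172, Rfx2 and Rfx3, not printed here, do hold the letters.
Ccdc153: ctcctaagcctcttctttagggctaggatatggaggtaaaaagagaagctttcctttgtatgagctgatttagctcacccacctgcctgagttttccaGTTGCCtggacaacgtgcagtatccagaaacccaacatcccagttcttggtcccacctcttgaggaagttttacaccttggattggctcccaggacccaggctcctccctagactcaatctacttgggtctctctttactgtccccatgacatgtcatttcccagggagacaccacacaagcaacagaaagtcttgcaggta
Dynlrb2: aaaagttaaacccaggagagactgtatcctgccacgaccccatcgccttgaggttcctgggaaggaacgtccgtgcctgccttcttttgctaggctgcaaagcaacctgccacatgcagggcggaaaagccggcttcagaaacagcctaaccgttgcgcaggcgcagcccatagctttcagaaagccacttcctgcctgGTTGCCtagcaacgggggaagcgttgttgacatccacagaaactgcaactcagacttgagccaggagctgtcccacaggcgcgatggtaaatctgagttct
Fam183b: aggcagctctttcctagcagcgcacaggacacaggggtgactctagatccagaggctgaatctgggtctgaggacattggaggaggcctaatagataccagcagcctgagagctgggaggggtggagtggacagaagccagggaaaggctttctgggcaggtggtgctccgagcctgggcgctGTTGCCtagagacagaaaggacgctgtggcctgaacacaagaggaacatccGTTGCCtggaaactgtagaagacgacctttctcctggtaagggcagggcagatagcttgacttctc
Sntn: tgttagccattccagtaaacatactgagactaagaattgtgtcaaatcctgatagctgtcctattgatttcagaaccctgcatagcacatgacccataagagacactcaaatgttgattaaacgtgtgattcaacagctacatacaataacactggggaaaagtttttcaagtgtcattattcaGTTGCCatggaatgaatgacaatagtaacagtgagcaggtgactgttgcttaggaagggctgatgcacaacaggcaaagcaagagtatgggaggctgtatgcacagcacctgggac
Tmem212: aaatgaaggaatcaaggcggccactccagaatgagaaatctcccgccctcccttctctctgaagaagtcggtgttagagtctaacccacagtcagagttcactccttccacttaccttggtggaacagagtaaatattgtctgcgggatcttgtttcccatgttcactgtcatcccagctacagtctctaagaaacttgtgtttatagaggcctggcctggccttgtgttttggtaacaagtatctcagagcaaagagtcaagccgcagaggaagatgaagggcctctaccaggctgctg

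Of those genes Ccdc153, Dynlrb2 and Tmem212 belong to the rule, so their height in ciliated cells is a description of the choice. Fam183b, a ciliary gene that the rule does not read, stood at 920, 902 and 949 CPM in the ciliated cells of the 3 libraries against 1.12 CPM in Club-Tracer club cells, an 824-fold (538 to 1332) difference. Ccdc153 stood at 860, 844 and 949 CPM against 0.798 CPM. The values of Fam183b, from 902 to 949 CPM, lie closer to each other than those of Foxj1, Tuba1a or Dnah5.

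Club-Tracer and BASC-Tracer ciliated cells carried the program at nearly equal levels. Of 3949 genes at 50 CPM in either, 20 (0.506%) were at least 2-fold higher in Club-Tracer and 7 (0.177%) at least 2-fold higher in BASC-Tracer ciliated cells. The median log2 ratio was -0.06 and 93.8% of genes lay within 0.5. None of the 67 axoneme genes tested was 2-fold apart; their median was -0.24, from -0.66 for Ccdc40 to 0.18 for Dnaaf4. Without the mixed barcodes that median was -0.12, against -0.01 for all genes. Nor was any gene of the transport, BBSome, tubulin, energy or transcription lists 2-fold apart at 50 CPM. With 1 library each, a lineage difference, a difference between animals and a difference between sorts cannot be told apart.

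**Figure D3:**
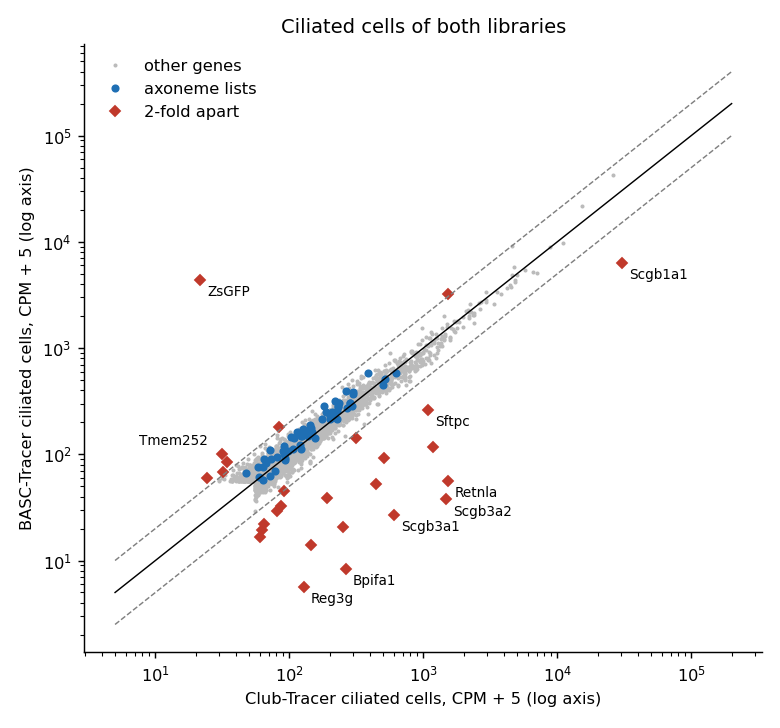
Level of each gene at 50 CPM or more in Club-Tracer (horizontal axis) against BASC-Tracer ciliated cells (vertical axis), both in CPM + 5 on logarithmic axes; blue points are axoneme genes, red diamonds are genes 2-fold apart, dashed lines mark 2-fold and the solid line equality. Axoneme genes lie between the dashed lines, with a median log2 ratio of -0.24, and Scgb3a2 (5.29) and ZsGFP (-7.66) lie farthest from it.

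Several of the genes higher in Club-Tracer ciliated cells were secretory genes with most UMIs in few barcodes. Scgb3a2, a secretoglobin of club cells, stood at 1472 CPM (1444 to 1501) in Club-Tracer, 32.7 CPM (24.1 to 43.4) in BASC-Tracer and 0 UMIs in AT2-Tracer ciliated cells. Yet the median Club-Tracer ciliated cell held 1 Scgb3a2 UMI, 10 of 467 cells held 93.9% of the UMIs, and the 21 mixed barcodes held 93.9%. Without the mixed barcodes it was 101 CPM against 33.4 CPM. Scgb1a1, the main club cell secretoglobin and the gene whose promoter drives CreER, stood at 30392, 6341 and 1322 CPM; the mixed barcodes held 59.1% of its Club-Tracer UMIs, and without them it was 14037 against 6569 CPM. Sftpc, the AT2 surfactant gene, stood at 1071, 255 and 13220 CPM; the mixed barcodes held 82.9% of the Club-Tracer UMIs, and without them the log2 ratio of Club-Tracer over BASC-Tracer was -0.35 in place of 2.05. In the AT2-Tracer cells 2679 of 2771 Sftpc UMIs came from 1 mixed barcode of 43870 UMIs. Scgb3a2, Scgb1a1 and Sftpc are markers that define mixed barcodes, so their shares in these barcodes, and the drop without them, are partly set by that choice.

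Other secretory genes were concentrated in the same way. The upper airway genes Bpifa1 and Scgb3a1 stood at 258 against 3.41 CPM and 601 against 21.8 CPM, with 83.3% and 83.9% of the Club-Tracer UMIs in mixed barcodes; without them Bpifa1 was at 48.6 against 0 CPM and Scgb3a1 at 109 against 7.81 CPM. Retnla, a resistin-like secreted protein, stood at 1518 against 51.1 CPM, with 75.2% in mixed barcodes and 426 against 51.1 CPM without them. Reg3g, an antimicrobial lectin, differed: it stood at 123 CPM in Club-Tracer and 0.682 CPM in BASC-Tracer ciliated cells, mixed barcodes held 6.91% of its UMIs, and without them it was 129 against 0.710 CPM. It too was uneven, since 10 cells held 86.7% of the UMIs and 428 of 467 cells had none. Bpifa1, Scgb3a1 and Reg3g are markers that define mixed barcodes, and Retnla is not. Without the mixed barcodes 3967 genes were tested, 11 were higher in Club-Tracer and 9 higher in BASC-Tracer ciliated cells, and the 11 were all among the 20.

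The genes higher in BASC-Tracer ciliated cells were led by the reporter ZsGFP, on which that library was sorted. Tmem252, a membrane protein gene, stood at 26.6 CPM in Club-Tracer, 94.8 CPM in BASC-Tracer and 134 CPM in AT2-Tracer ciliated cells, with no UMI in the club cells of the first 2, so it was at least 167-fold and 144-fold above them. Ereg, an EGF family ligand, stood at 19.4 and 54.5 CPM, and Gdf15, a stress-induced cytokine, at 27.2 and 63.4 CPM. Lars2, a mitochondrial tRNA synthetase, stood at 1515 and 3229 CPM, and was also higher in BASC-Tracer than Club-Tracer club cells (1302 against 497 CPM). The mitochondrial gene mt-Nd6 and the unnamed transcript B020010K11Rik complete the 7.

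Club cell genes were not uniformly absent from ciliated cells. Cyp2f2, a cytochrome P450 of club cells, stood at 1778 CPM (1747 to 1810) in Club-Tracer, 1525 CPM (1462 to 1590) in BASC-Tracer and 1302 CPM (1153 to 1466) in AT2-Tracer ciliated cells. It had a UMI in 94.0%, 91.0% and 100% of them, with medians of 15, 16.5 and 22 UMIs per cell. Club cells held 7280, 8236 and 5607 CPM, the last over 6 cells. As a measure of free RNA, macrophages (8, 100 and 1596 cells) held 36.2, 56.3 and 0.904 CPM, with a UMI in 37.5%, 19.0% and 0.815% of cells at median depths of 15937.5, 11080.5 and 9280 UMIs. Cyp2f2 was thus far above macrophages in the ciliated cells of every library. It was also spread over cells, since the top 10 Club-Tracer cells held 18.7% of its UMIs.

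Scgb1a1 gave another picture: its median was 32, 17 and 4 UMIs per ciliated cell and 17, 8 and 0 UMIs per macrophage, so the medians of the 2 classes were closer than for Cyp2f2. Hp, haptoglobin, stood at 2380, 1730 and 1135 CPM with medians of 15, 14 and 18 UMIs per ciliated cell, against 118, 158 and 90.7 CPM in macrophages.

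**Figure D4:**
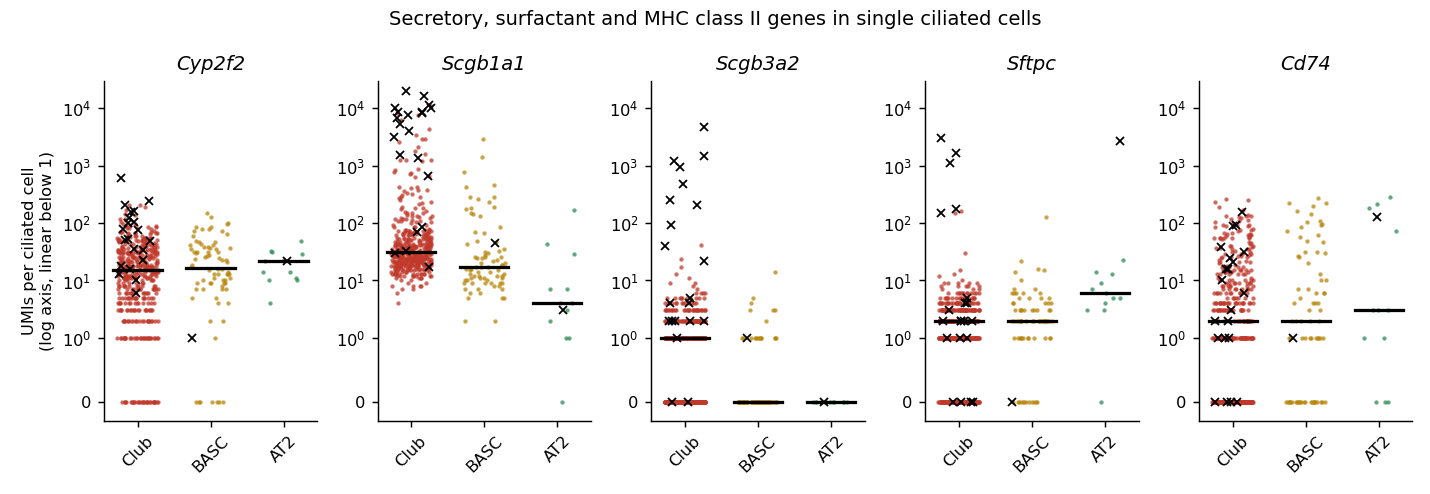
UMIs per ciliated cell (vertical axis, logarithmic, linear below 1) of Cyp2f2, Scgb1a1, Scgb3a2, Sftpc and Cd74 in the Club-Tracer (Club), BASC-Tracer (BASC) and AT2-Tracer (AT2) libraries; each point is a cell, crosses are mixed barcodes and black bars are medians. Cyp2f2 has medians of 15, 16.5 and 22 UMIs in the 3 libraries, and the Scgb3a2 and Sftpc totals come from a few cells far above medians of 1 and 2 in the Club-Tracer library.

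Other metabolic genes split. Of 18 xenobiotic and antioxidant genes, 6 were higher in ciliated than club cells and 5 lower in the Club-Tracer library, with a median log2 ratio of 0.18, and 7 were higher and 6 lower in the BASC-Tracer library (5 and 7, and 6 and 6, with median scaling). Among all genes tested 48.6% and 41.4% were higher and 3.87% and 6.1% lower in the 2 libraries. Cyp2s1, another P450, stood at 1110, 1248 and 868 CPM in ciliated cells against 20.6 CPM in Club-Tracer club cells, a 53.8-fold (48.6 to 59.7) difference. Aldh3b1, an aldehyde dehydrogenase, stood at 639, 641 and 744 CPM against 29.9 CPM. Fmo2, a flavin monooxygenase, stood at 55.6, 11.6 and 14.3 CPM against 763 CPM. Fmo2, Cyp2f2 and Aldh1a1 of this list are markers that chose the club cells, so their values against club cells are a description.

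Genes lower than in club cells were led by Pon1, a paraoxonase, at 23.0 CPM in Club-Tracer, 3.41 CPM in BASC-Tracer and 0 UMIs in AT2-Tracer ciliated cells, against 412 and 321 CPM in the club cells of the first 2. Scnn1b and Scnn1g, subunits of the epithelial sodium channel, stood at 18 and 4.61 CPM in Club-Tracer ciliated cells against 264 and 65.2 CPM in club cells. Cldn10, a tight junction claudin, stood at 30.5 against 375 CPM, and Esr1, the oestrogen receptor, at 6.19 against 98.8 CPM. Pon1 and Cldn10 are among the markers that chose the club cells, so their lower values are a description of that choice. Scnn1b, Scnn1g and Esr1 are not among those markers. In the ion transport list 3 genes were higher and 3 lower of 9 in both libraries, beside 48.6% and 41.4% higher and 3.87% and 6.1% lower among all genes tested. With median scaling 2 were higher and 3 lower in the Club-Tracer library, and 2 higher and 4 lower in the BASC-Tracer library. Slc9a3r1, a scaffold of apical transporters, was among the higher ones at 288 against 89.5 CPM.

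Acute phase and injury genes were lower in 8 of 10 and higher in 2 of 10 in both libraries, with median log2 ratios of -2.26 and -3.44. With median scaling 8 were lower in both and 0 and 1 higher. Hp of this list is a marker that chose the club cells, so its value against them is a description. Lcn2, lipocalin 2, stood at 139 CPM in Club-Tracer ciliated and 797 CPM in club cells. The mixed barcodes held 88.4% of its 967 UMIs, 396 of 467 cells had none, and without the mixed barcodes it was at 18.2 CPM. Chil1, a chitinase-like protein, stood at 47.1 and 466 CPM, and at 11.4 CPM in ciliated cells without the mixed barcodes. Cxcl17, a mucosal chemokine, stood at 1118, 851 and 1026 CPM in ciliated cells against 428 CPM in Club-Tracer club cells. In the p53 target list Mdm2 stood at 212 against 34.7 CPM and Ccng1 at 51.4 against 130 CPM in the Club-Tracer library, where 3 of 6 were higher and 1 lower, 2 and 1 with median scaling. In the BASC-Tracer library 2 of 6 were higher and 1 lower, and 1 and 1 with median scaling; these shares of higher genes are near those of all genes tested. In the immediate early and heat shock list 5 of 14 were higher and 0 lower in both libraries, among them the chaperone Hsph1 at 101 against 4.95 CPM. With median scaling 3 were higher in both, and 2 (Club-Tracer) and 3 (BASC-Tracer) were lower. Among all genes tested 48.6% (Club-Tracer) and 41.4% (BASC-Tracer) were higher, or 31% and 30% with median scaling. The Notch and interferon counts below are to be read beside the same shares. Of the Notch genes, the ligand Jag2 stood at 41.3 against 0.532 CPM and the target Nrarp at 3.74 against 43.3 CPM in the Club-Tracer library; both were below 50 CPM. At 50 CPM, 1 of 2 Notch genes was higher there and 1 of 3 in the BASC-Tracer library. Of 3 interferon response genes 1 was higher in both libraries, Ifitm3, which blocks virus entry, at 812 against 206 CPM in the Club-Tracer library.

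Major histocompatibility complex class II genes, which present antigen to T cells, were above club cells in 3 of 3 at 50 CPM in both libraries. Among all genes tested 48.6% (Club-Tracer) and 41.4% (BASC-Tracer) were higher. H2-Aa stood at 255 CPM (243 to 267) in Club-Tracer, 364 CPM (334 to 396) in BASC-Tracer and 997 CPM (867 to 1142) in AT2-Tracer ciliated cells, against 15.6 and 17.4 CPM in club cells of the first 2. Cd74, the invariant chain, stood at 979, 1545 and 4246 CPM. The levels were uneven among cells: 97 of 467 Club-Tracer cells (20.8%), 21 of 78 BASC-Tracer cells (26.9%) and 5 of 13 AT2-Tracer cells had Cd74 at 1000 CPM or more, a limit chosen after the values were seen, and they held 85.5%, 93.3% and 98.8% of its UMIs. For Club-Tracer and for BASC-Tracer this is a range and not a cell type, since 89 and 13 cells lie between 0.5 and 2 times the limit; 0 of the 13 AT2-Tracer cells do.

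Genes that the Cd74 limit does not read were higher in the same cells. H2-Aa was 14.6-fold (12.9 to 16.6) higher than in the other ciliated cells of the Club-Tracer library and 14.9-fold (11.2 to 20.0) in the BASC-Tracer library. H2-Ab1 was 19.7-fold (16.3 to 24.1) and 23.0-fold (13.6 to 41.8) higher, and H2-Eb1 18.6-fold (13.2 to 26.8) and 16.2-fold (7.002 to 46.0). Ptprc, the leukocyte marker CD45, had 2 UMIs in the Cd74-high and 1 UMI in the other Club-Tracer ciliated cells and none in the BASC-Tracer ciliated cells. Summed RNA of some genes of other cell types moved with the limit too: in the Club-Tracer library Sftpc was 4.69-fold (4.47 to 4.91), Lyz2 3.68-fold (3.43 to 3.96) and Sftpd 2.18-fold (1.996 to 2.37) higher in the Cd74-high cells, with medians of 2, 1 and 2 UMIs per cell against 2, 1 and 1. Of the 97 Cd74-high cells there, 4 were mixed barcodes. Of their 4511 Sftpc UMIs, 3054 came from 1 mixed barcode and 1114 from another, so the Sftpc fold describes few barcodes. In the BASC-Tracer library Sftpd was 4.59-fold (3.35 to 6.37) higher, Sftpc at 0.204-fold (0.143 to 0.284) and Lyz2 at 0.890-fold (0.519 to 1.49). The part of these types was not tested. Of the ciliated genes in the Club-Tracer library, Tmem212 was at 0.993-fold (0.948 to 1.04) and Tppp3 at 0.799-fold (0.764 to 0.835). Dynlrb2 was at 0.748-fold (0.709 to 0.789), Ccdc153 at 0.742-fold (0.695 to 0.791), Foxj1 at 0.709-fold (0.669 to 0.751) and Dnah5 at 0.696-fold (0.621 to 0.779). The same genes ran from 0.575-fold for Dynlrb2 to 0.827-fold for Tppp3 in the BASC-Tracer library. All of these genes but Dnah5 belong to the rule. The share of all genes that were lower in Cd74-high cells is not given here, so these values are descriptions. Ccno was at 0.0858-fold in the Club-Tracer library. The Cd74-high cells were deeper, with median UMIs of 15949 against 10745, 29174 against 11584 and 25979 against 7337.5. The part of depth in these ratios was not tested. Thinned to 1500 UMIs per cell, 20.5%, 28.2% and 38.5% of ciliated cells had 2 or more Cd74 UMIs.

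A small set of ciliated cells carried the centriole amplification program. Ccno, Deup1, Cdc20b, Mcidas and Foxn4, which act while a cell makes the many centrioles that seed its cilia, together gave 20 or more UMIs in 21 of 467 ciliated cells from the Club-Tracer library (4.497%, 2.80 to 6.79), 3 of 78 from BASC-Tracer (3.85%, 0.800 to 10.8) and 0 of 13 AT2-Tracer cells, which allows up to 23.1% taken as 3 counts of 13, or 24.7% by the exact interval. The limit was chosen after the values were seen; at 10 UMIs it was 29 and 4 cells, at 40 UMIs 15 and 3 cells, and 14 and 1 cells lay between 0.5 and 2 times the limit. These cells held 78.8% and 87.4% of the UMIs of the 5 genes. In the 21 Club-Tracer cells Ccno ranged from 1 to 83 UMIs with a median of 32, against a median of 0 in the other 446.

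**Figure D5:**
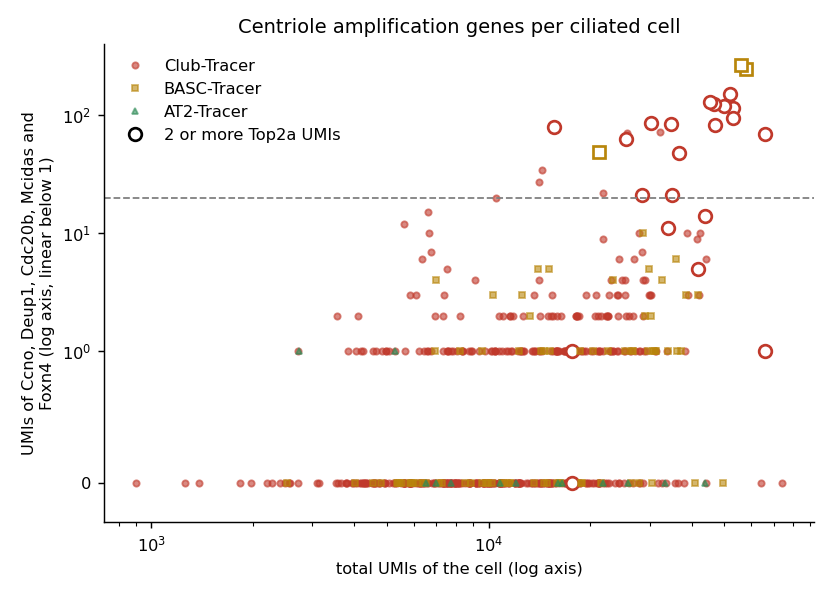
Summed UMIs of Ccno, Deup1, Cdc20b, Mcidas and Foxn4 per ciliated cell (vertical axis, logarithmic, linear below 1) against the total UMIs of the cell (horizontal axis, logarithmic), by library; the dashed line marks 20 UMIs and large open symbols are cells with 2 or more Top2a UMIs. Of 21 Club-Tracer and 3 BASC-Tracer cells with 2 or more Top2a UMIs, 15 and 3 lie above the line.

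Some genes not read by the limit set these cells apart, and others did not. In the Club-Tracer library Plk4, the kinase that starts centriole duplication, was 14.0-fold (9.90 to 20.0) higher in the 21 cells than in the other 446, Stil 31.6-fold (19.1 to 54.6) and Cep152 31.4-fold (15.8 to 67.7), both partners of Plk4. Of the other centriole genes, Cep63, Sass6 and Cep78 were 3.94-fold, 3.92-fold and 3.23-fold higher. Cep164 was at 1.36-fold (1.12 to 1.62), and Ccdc78, a deuterosome protein, was lower at 0.678-fold (0.543 to 0.839). The cell cycle genes Cdc20, Top2a and Cdk1 were 23.0-fold (16.1 to 33.2), 18.1-fold (13.8 to 23.8) and 17.2-fold (12.7 to 23.7) higher, while Mki67 was 3.76-fold (2.14 to 6.42) higher at 21 UMIs. Myb was 3.17-fold (2.83 to 3.54) and Foxj1 1.95-fold (1.84 to 2.07) higher. Of the other multiciliate transcription genes, Tfdp1 was 2.03-fold and E2f4 1.64-fold higher, with E2f5 at 1.20-fold and Rfx1 at 1.00-fold. Rfx2 was at 0.655-fold (0.476 to 0.882), Rfx3 at 0.485-fold (0.307 to 0.731) and Trp73 at 0.837-fold (0.577 to 1.18). Several genes of the finished cilium were lower: Tmem212 at 0.242-fold (0.213 to 0.272), Dnah5 at 0.199-fold (0.146 to 0.265) and Hydin at 0.240-fold (0.166 to 0.335). Others were not, or were lower by less: Dynlrb2 was 1.38-fold (1.29 to 1.46) higher, Tuba1a was at 1.02-fold (0.963 to 1.07), Tppp3 at 0.758-fold (0.709 to 0.809) and Ccdc153 at 0.497-fold (0.444 to 0.555). Foxj1, Tmem212, Dynlrb2, Tppp3 and Ccdc153 belong to the rule, so a cell low in some of them had to carry others. Their values are descriptions shaped by that choice. Cyp2f2 was at 0.143-fold (0.124 to 0.164) and Cd74 at 0.0774-fold (0.0593 to 0.0994), while Scgb1a1 was 3.25-fold (3.22 to 3.28) higher, with a median of 670 UMIs against 31. Krt5, the basal keratin, had no UMI in the 21 cells and 4 UMIs in the other 446, too few to compare (ratio interval 0 to 12.8).

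In the BASC-Tracer library the 3 such cells pointed the same way for Plk4 at 17.9-fold (9.38 to 35.2), Myb at 3.72-fold (2.93 to 4.68), Foxj1 at 2.81-fold (2.51 to 3.14) and Tmem212 at 0.384-fold (0.297 to 0.488), but Dnah5 was at 0.901-fold (0.653 to 1.22). Dynlrb2 was 2.66-fold (2.38 to 2.96), Tuba1a 1.83-fold (1.66 to 2.01) and Tppp3 1.25-fold (1.09 to 1.44) higher in the 3 cells. Ccdc78, lower in the Club-Tracer set, was higher here at 1.82-fold (1.31 to 2.496), with 37 of its 47 UMIs in 1 cell. Tppp3 likewise differed in direction between the libraries. Rfx2 was at 1.61-fold (0.953 to 2.604), an interval that includes 1. Foxj1, Tmem212, Dynlrb2 and Tppp3 are rule genes here too. These cells were deeper, with median UMIs of 34809 against 11206 in Club-Tracer and 56035 against 14551 in BASC-Tracer, and their median mitochondrial share was 2.09% against 4.21% in Club-Tracer. At least 3 of 5 proliferation markers were met by 10 Club-Tracer and 3 BASC-Tracer ciliated cells, and 9 and 3 of them were in this set. Mixed barcodes made up 4 of the 21 and 1 of the 3. The part of depth and of mixed barcodes was not tested.

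The reporter transcripts were read in the ciliated cells of each library. tdT stood at 288 CPM (275 to 301) in Club-Tracer, 491 CPM (456 to 528) in BASC-Tracer and 62.0 CPM (33.02 to 106) in AT2-Tracer ciliated cells, with a UMI in 67.7%, 82.1% and 2 of 13 cells. ZsGFP stood at 16.6 CPM (13.7 to 19.9), 4347 CPM (4241 to 4455) and 1584 CPM (1418 to 1764), with a UMI in 19.3%, 91.0% and 9 of 13 cells. Macrophages, which should use neither driver gene, held 18.1, 64.5 and 0.0603 CPM of tdT and 0, 701 and 514 CPM of ZsGFP. ZsGFP in BASC-Tracer ciliated cells was thus above macrophages. It was below the 7192 CPM of that library's barcodes under 500 genes and within the mitochondrial limit. In the AT2-Tracer library 244 of the 332 ZsGFP UMIs came from the mixed barcode, 48 and 23 from 2 other cells, and the remaining 10 cells held from 0 to 8 each. At the thinned depth of 1500 UMIs per cell tdT was seen in 25.9%, 41.0% and 7.69% and ZsGFP in 2.80%, 84.6% and 38.5% of ciliated cells.

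Both reporters were seen in 60 of 78 BASC-Tracer ciliated cells, tdT alone in 4, ZsGFP alone in 11 and neither in 3. In the Club-Tracer library 240 of 467 ciliated cells had tdT alone, 76 both, 14 ZsGFP alone and 137 neither. Barcodes under 500 genes with at most 15% mitochondrial UMIs held 399, 702 and 22.9 CPM of tdT and 373, 7192 and 6498 CPM of ZsGFP. What these barcodes contain was not examined. At these depths a missing UMI does not show a missing reporter.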

How the data were processed

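The deposited matrices hold UMI counts per gene and barcode, not normalized, per the file headers; sorting on ZsGreen and tdTomato and 5′ library chemistry come from the labels' protocols. Cell Ranger 6.1.1 and build mm10 are named per the submitters' processing notes, and the sources used here name no annotation release. Barcodes with 500 or more genes and at most 15% mitochondrial UMIs were kept. Ciliated cells were chosen as stated in the report, and club, upper airway secretory, basal, AT2 and macrophage barcodes by at least 8 of 11, 3 of 7, 3 of 6, 7 of 9 and 4 of 7 markers with 2 or more UMIs, outside the ciliated set; these limits were set after marker counts were seen. An endothelial class gave 3, 0 and 7 barcodes and was not used as background. The members and gene lists were chosen with earlier results of these data known.

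UMIs were summed per class and library. Levels are counts per 1000000 (CPM) with exact Poisson intervals, folds have exact conditional intervals, and shares have Clopper-Pearson intervals. Genes were called at 2-fold on log2((CPM + 5)/(CPM + 5)) where either class reached 50 CPM, and the named genes follow a fixed rule: the 5 rule genes, Scgb1a1, Sftpc, both reporters and Dynlrb1, the 15 highest and 8 lowest against Club-Tracer club cells, the 10 farthest on each side between libraries, and up to 4 members at the ends of each list at 20 CPM or more, leaving mitochondrial, ribosomal, predicted and sex-linked genes out of the rankings. Genes named outside it were chosen after their values were seen. UMI chemistry reads one end of each molecule, so levels are compared between cells and not between genes. Doublets were not removed: Scrublet (scanpy 1.11.5) marked 0.0313%, 0% and 1.72% of barcodes automatically, so the first 2 thresholds did not work and the highest scores were left out as an alternative. Promoters are RefSeq sequences on GRCm38.p6; Foxj1, Tppp3 and Scgb1a1 were not in the table. The summing and calling steps were tested on simulated counts. Python 3.11.15, numpy 2.4.6, scipy 1.17.1 and pandas 2.3.3 were used.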

Additional observations from a re-analysis of the deposited data

Results flagged for a closer look

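Sftpc, the AT2 surfactant gene, had a log2 ratio of ciliated over club cells of 2.13 in the Club-Tracer library and -1.12 in the BASC-Tracer library, so the sign differed between libraries; the difference was not tested. In the Club-Tracer library 82.9% of the ciliated Sftpc UMIs lay in the 21 mixed barcodes, and without them the log2 ratio was -0.21. Sftpc is one of the AT2 markers that define mixed barcodes, so this change is partly set by that choice.

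Barcodes outside the quality filters also met the rule for ciliated cells: 43 in the Club-Tracer, 4 in the BASC-Tracer and 2 in the AT2-Tracer library. All of them exceeded the 15% mitochondrial limit.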

How the results depend on the processing

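No paired analysis was possible because each group has 1 library and no test was made; leaving out a library would leave its group empty. The limits are set by counting depth and by which barcodes are taken as ciliated. Of 5916 recomputed values for 129 named genes, 9 changed sign and 55 called ones fell within 2-fold. Axoneme genes tested against club cells were all 2-fold higher under each of the 12 alternatives, a count that the gene limit largely sets.

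Between the libraries, the 20 genes higher in Club-Tracer became 11 without mixed barcodes, 37 with a gene limit of 20 CPM and 181 with each cell thinned to 1500 UMIs; the 7 higher in BASC-Tracer became 13 and 4 with pseudocounts of 1 and 20 CPM, 17 and 3 with gene limits of 20 and 100 CPM, and 286 thinned, where the sums fell to 696000 and 117000 UMIs. With gene limits of 20 and 100 CPM, the genes above club cells numbered 3063 and 895 (Club-Tracer) and 2716 and 863 (BASC-Tracer), those below 88 at 100 CPM (Club-Tracer) and 374 and 156 (BASC-Tracer). Against basal cells they were 1816 and 612 higher and 960 and 390 lower, and against upper airway cells 2472 and 778 higher and 308 lower at 20 CPM. Median scaling gave 1155 higher and 301 lower (Club-Tracer), 386 lower (BASC-Tracer) and 328 lower against upper airway cells, and thinning gave 408 lower in BASC-Tracer. The gene limits change the number of genes tested; the cause of the other changes was not tested.

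Requiring 1000 genes gave a Club-Tracer share of 16.2%. Thinning gave 25.9% (tdT, Club-Tracer), 2.80% (ZsGFP, Club-Tracer), 41.0% (tdT, BASC-Tracer) and 38.5% (ZsGFP, AT2-Tracer), and 2 or more UMIs of the 6 centriole amplification genes in 9.48% in place of 63.8% (Club-Tracer) and 10.3% in place of 70.5% (BASC-Tracer) of ciliated cells. The sign changes were Sftpc between libraries at -0.23 without doublets and -0.35 without mixed barcodes, Sftpc over club cells at -0.11 and -0.21, Cxcl15 between libraries at -0.19 without mixed barcodes, Bpifa1 over club cells at -1.03 without mixed barcodes and -0.43 thinned, Lyz2 over basal cells at -0.0151 without mixed barcodes, and Mcidas over BASC-Tracer club cells at -0.14 thinned. The comparisons with upper airway and basal cells were added to the alternatives after the data were seen.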
